A study of Mus musculus with 18 samples.

Results

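Adding an antibody against PD-1 to radiofrequency ablation (RFA) was examined in 6 of the 18 mouse tumours sequenced: 3 from animals given RFA plus anti-PD-1 and 3 from animals given RFA alone. Every gene with a mean of at least 0.5 FPKM (fragments scaled to the length of the gene and to the mapped fragments of the library) over all 18 tumours was compared, which kept 12587 of 26538 genes. The groups are those of the labels: RNA came from a tumour that had not itself been treated, resected from a mouse whose other tumour had been ablated. RFA, which destroys tissue by heating it with an alternating current, was therefore given to the animals of both groups, and the antibody was the one labelled difference. The other 12 tumours came from mice given cryoablation (freezing) or cryo-thermal therapy, each with and without anti-PD-1, 3 tumours a group, and here they serve to estimate the spread between tumours and to compare the antibody effect. The sources used here do not give the mouse strain, age, tumour line, antibody dose or collection day. Nor do the labels tell whether each tumour of a group is from its own mouse, so the p-values rest on the spread among these samples alone, which may be technical.

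PD-1 is an inhibitory receptor on activated T cells, and its ligands on tumour and myeloid cells restrain T cells that have recognised an antigen. Antibodies that block it release this restraint, and in responsive tumours interferon gamma from T cells then induces chemokines such as CXCL10 and antigen presentation. Ablation leaves dead tumour tissue that can supply antigen, so an untreated tumour elsewhere in the animal is a usual place to look for a response of the whole immune system. The series title concerns T cell infiltration, a CCL5-positive state of myeloid cells and the strengthening of anti-PD-1 by ablation.

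The 6 tumours had similar depth, between 37800000 and 38800000 fragments as estimated from the steps of the FPKM values, and this is approximate because the annotation is unknown. Pearson r across genes was 0.983 to 0.990 among the RFA plus anti-PD-1 tumours, 0.977 to 0.991 among the RFA tumours and 0.972 to 0.989 between the groups, so the groups did not separate as wholes. The labels name the tissue only as tumour. Of 20 epithelial genes 7 passed the filter, with Krt8 and Krt18 below it, and of 10 melanocyte genes 1 passed, so most markers of both were below it. Hair follicle RNA, which was abundant in 3 tumours of the other groups, was low in all 6, with mean log2 levels of 0.28 to 0.68 against 2.07 to 2.28 in those 3.

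With anti-PD-1 added, 6 of the 12587 genes changed at an adjusted p under 0.05 in limma, a linear model fitted across all genes with Benjamini-Hochberg adjustment. That is 0.0477% of the genes tested, 4 higher (0.0318%) and 2 lower (0.0159%). The higher genes were Thbs4, Ccl11, Cd209g and Cad, and the lower ones were Ccng2 and Dnase1l1. Thbs4, Ccl11 and Cd209g differed by over 2-fold on the log2(FPKM + 1) scale, a scale that understates the fold of genes with low FPKM, and the other 3 by less. At an unadjusted p under 0.05, 931 genes were higher (7.40%) and 526 lower (4.18%), 1457 in all, where 629 would be expected if no gene differed. The groups did not overlap in 964 higher genes (7.66%) and 905 lower ones (7.19%), and the median over all genes was 0.01 on the log2 scale.

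**Figure D1:**
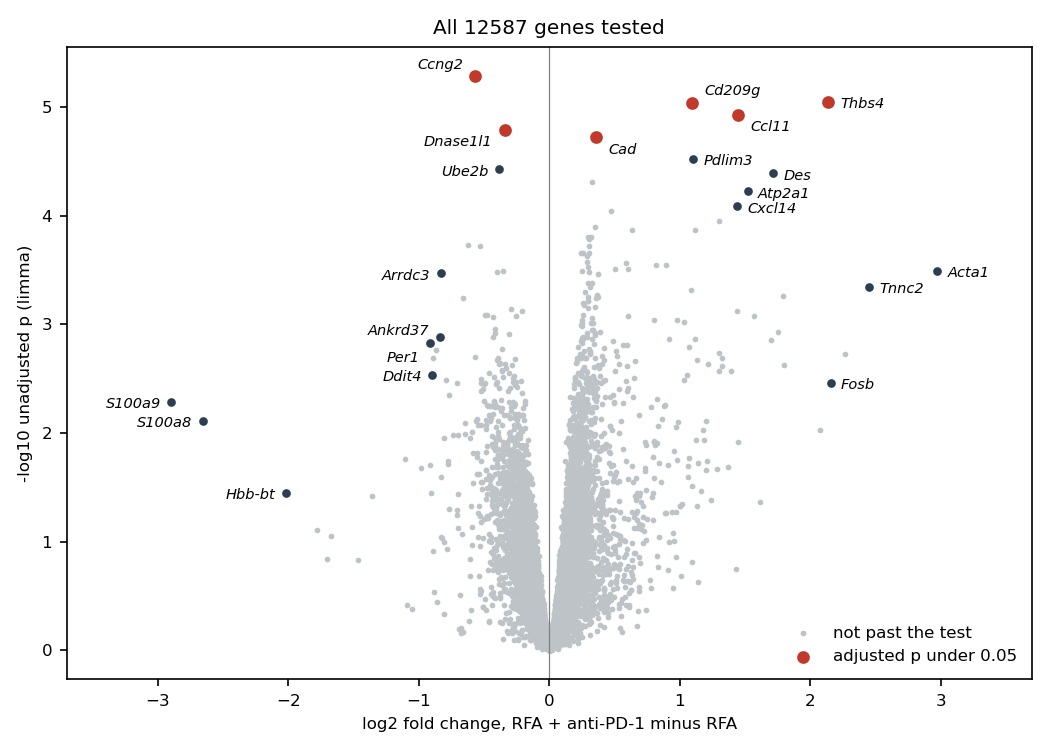
Each point is 1 of the 12587 genes, with the log2 fold change of RFA plus anti-PD-1 over RFA on the x axis and -log10 of the unadjusted limma p on the y axis. The 6 genes past an adjusted p of 0.05 are red, and the dark labelled genes, among them Acta1 at 2.97 and S100a9 at -2.90, did not pass.

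Thbs4 (NCBI gene 21828) encodes thrombospondin 4, a secreted glycoprotein of the matrix of tendon and muscle. It measured 24.5, 15.7 and 20.1 FPKM in the RFA plus anti-PD-1 tumours, against 3.45, 2.71 and 5.42 FPKM in the RFA tumours. Its means were 20.1 ± 4.41 FPKM with anti-PD-1 and 3.86 ± 1.40 FPKM without it (SD, n = 3 each), and the log2 fold change was 2.13 (SE 0.33, limma adjusted p = 0.037). The lowest tumour with anti-PD-1 was above the highest tumour without it. The same direction was measured where anti-PD-1 was added to cryoablation, with 13.5, 13.7 and 11.8 FPKM with anti-PD-1 against 4.08, 6.39 and 4.53 FPKM without it (1.24, limma adjusted p = 0.0451). Added to cryo-thermal therapy, it was 32.9, 20.4 and 15.5 FPKM with anti-PD-1 against 12.1, 12.8 and 4.45 FPKM without it, which did not pass (1.20, limma adjusted p = 0.119).

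Ccl11 (20292) encodes eotaxin, a chemokine that draws eosinophils through the receptor CCR3. Its values were 4.85, 4.70 and 4.48 FPKM with anti-PD-1, against 0.967, 1.13 and 1.15 FPKM after RFA alone. The groups were tight and far apart, with means of 4.68 ± 0.186 FPKM with anti-PD-1 and 1.08 ± 0.0998 FPKM without it (SD, n = 3 each) and a log2 fold change of 1.45 (SE 0.23, limma adjusted p = 0.037). With cryoablation the values were 6.95, 5.06 and 3.77 FPKM with anti-PD-1 against 1.14, 1.29 and 2.19 FPKM without it (1.29, limma adjusted p = 0.0137). With cryo-thermal therapy Ccl11 was already high without the antibody, at 8.62, 7.52 and 8.21 FPKM with anti-PD-1 against 8.63, 5.56 and 3.42 FPKM without it, and the groups overlapped (0.48, limma adjusted p = 0.391). Of 57 gene lists of cell types and pathways, that of lymphocyte and monocyte chemokines, through Ccl11, was the one with a gene past the test.

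Cd209g (70192) belongs to the mouse family of C-type lectins related to DC-SIGN, a pathogen receptor of dendritic cells and macrophages. It measured 1.79, 1.96 and 0.975 FPKM with anti-PD-1, against 0.196, 0.111 and 0.263 FPKM after RFA alone. The ratio of the mean FPKM was 8.29, and on the compressed log2(FPKM + 1) scale the fold change was 1.09 (SE 0.17, limma adjusted p = 0.037). With log2(FPKM + 0.1) it was 2.51, which did not pass (limma adjusted p = 0.0879). Again the groups did not overlap. With cryoablation the values were 1.60, 1.84 and 1.37 FPKM with anti-PD-1 against 0.153, 0.0222 and 0.265 FPKM without it (1.18, limma adjusted p = 0.0112), and with cryo-thermal therapy 0.849, 0.470 and 0.177 FPKM with anti-PD-1 against 0.333, 0.348 and 0.132 FPKM without it (0.22, limma adjusted p = 0.604). Its relative Cd209f did not pass, at 4.87, 5.11 and 1.95 FPKM with anti-PD-1 against 0.377, 0.336 and 1.90 FPKM without it (1.44, limma adjusted p = 0.152). Cd209f was the highest member of the list of macrophages and monocytes, which as a whole was not higher. Of its 25 genes 17 lay below 0 (median -0.08), where 48.3% of all genes did. The genes of this family are close copies, so reads may be divided between them by the authors' counting.

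Cad, Ccng2 and Dnase1l1 changed little in size but with a narrow spread. Cad (69719), whose enzyme carries out the opening steps of pyrimidine synthesis, measured 26.9, 27.5 and 26.5 FPKM with anti-PD-1, against 21.5, 20.2 and 21.0 FPKM without it (log2 fold change 0.36, SE 0.06, limma adjusted p = 0.0398). Ccng2 (12452) encodes cyclin G2, a cyclin of cells that leave the cell cycle, and measured 21.8, 21.5 and 24.0 FPKM with anti-PD-1 against 31.6, 32.8 and 36.9 FPKM without it (-0.57, SE 0.08, limma adjusted p = 0.037). Dnase1l1 (69537), a DNase I-like nuclease, measured 19.2, 18.9 and 20.6 FPKM with anti-PD-1 against 25.0, 24.8 and 25.2 FPKM without it (-0.34, SE 0.06, limma adjusted p = 0.0398). None of the 3 had overlapping groups. With cryoablation Ccng2 and Dnase1l1 were lower as well (-0.36 and -0.25, limma adjusted p = 0.0319 and 0.0294), while Cad did not pass (0.17, limma adjusted p = 0.104). With cryo-thermal therapy all 3 missed the threshold (limma adjusted p = 0.399 to 0.791).

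**Figure D2:**
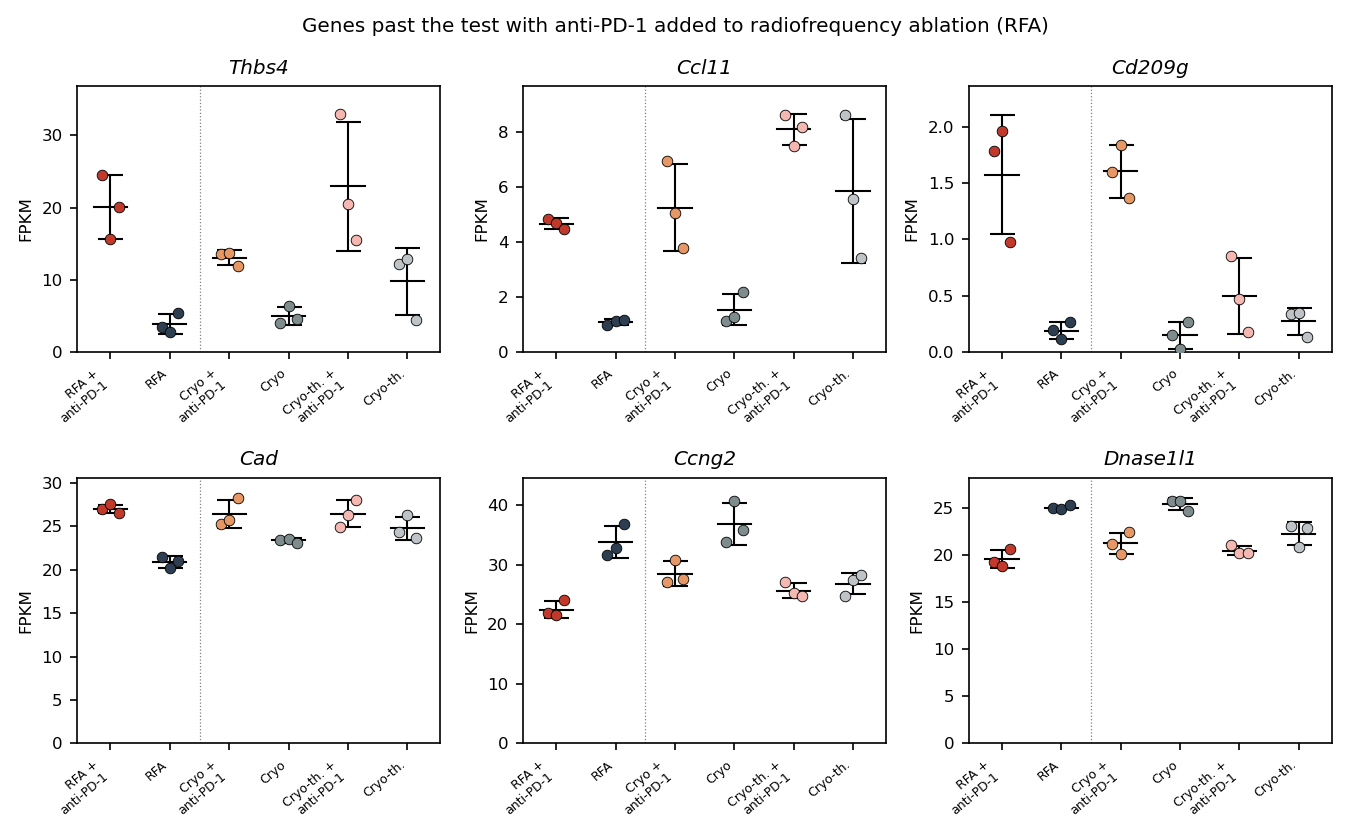
FPKM of the 6 genes past the test in each tumour (points) with the mean and SD of 3 tumours (lines), for RFA, cryoablation (Cryo) and cryo-thermal therapy (Cryo-th.), each with anti-PD-1 left of the ablation alone. The 3 RFA plus anti-PD-1 tumours lie wholly above the 3 RFA tumours for Thbs4, Ccl11, Cd209g and Cad and wholly below them for Ccng2 and Dnase1l1.

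The sizes of these 6 differences were steadier than their calls. Leaving out each of the 6 tumours in turn, between 0 and 3 genes passed: 0 without RFA plus anti-PD-1 replicate 1 or 2 or RFA replicate 1, 3 without RFA plus anti-PD-1 replicate 3, 2 without RFA replicate 2 and 1 without RFA replicate 3. Cd209g and Ccng2 kept their calls without RFA plus anti-PD-1 replicate 3 (limma adjusted p = 0.0183 and 0.0361). In the other 5 omissions none of the 6 genes passed, and the other 4 genes did not pass without that tumour either. Skeletal muscle levels were higher in the 3 tumours with anti-PD-1 than in the 3 without it, and erythroid levels were high in 2 of the 3 RFA tumours, as described next. With the muscle level as a covariate the log2 fold changes were 1.49 for Thbs4, 1.34 for Ccl11, 1.03 for Cd209g, 0.36 for Cad, -0.65 for Ccng2 and -0.31 for Dnase1l1, and with the erythroid level they were 2.21, 1.31, 1.15, 0.34, -0.52 and -0.31. In both fits 0 genes passed limma, with 658 (muscle) and 873 (erythroid) at an unadjusted p under 0.05. The muscle level separated the groups without overlap. Fits with it, here and for the lists below, therefore cannot tell the antibody apart from muscle content. Leaving out 3 tumours of the other antibody groups that are rich in hair follicle RNA (replicates 1 and 2 with cryoablation, replicate 1 with cryo-thermal therapy), 0 genes passed limma, with 1559 at an unadjusted p under 0.05.

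Skeletal muscle genes were the list with the highest median. All 15 of the 20 listed genes that passed the filter lay above 0 (median log2 fold change 1.52), 13 had an unadjusted p under 0.05, 12 had groups that did not overlap and 0 passed after adjustment. Over all genes 7.40% had such a p on the higher side and 7.66% had groups without overlap on that side. Acta1, skeletal actin, measured 32.0, 14.5 and 30.4 FPKM with anti-PD-1, against 0.429, 9.36 and 1.23 FPKM after RFA alone (2.97, limma adjusted p = 0.106). Tnnc2, the troponin C of fast muscle, measured 10.9, 6.06 and 8.58 FPKM with anti-PD-1 against 0, 2.71 and 0.34 FPKM without it (2.45, limma adjusted p = 0.13). Atp2a1, the calcium pump of fast fibres, had 3.59, 1.97 and 2.87 FPKM with anti-PD-1 against 0.0302, 0.915 and 0.137 FPKM without it (1.52, limma adjusted p = 0.0684). RFA replicate 2 was the highest of its group in all 3 genes and RFA plus anti-PD-1 replicate 2 the lowest of its own. The summed FPKM of the list was 174.6, 105.0 and 165.2 with anti-PD-1 and 52.0, 88.9 and 52.2 without it. In bulk tumours fewer cells of a type and less RNA per cell cannot be told apart. The median of the list was 0.86 for anti-PD-1 added to cryoablation and -0.25 for cryo-thermal therapy.

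Des, Pdlim3 and Cilp did not pass limma and had groups that did not overlap. Des, desmin, the intermediate filament of muscle, measured 7.84, 5.83 and 6.54 FPKM with anti-PD-1, against 0.466, 2.67 and 1.39 FPKM without it (1.72, limma adjusted p = 0.0572). Pdlim3, a protein of the muscle Z-disc, measured 1.92, 1.21 and 1.26 FPKM with anti-PD-1 against 0.013, 0.371 and 0.0655 FPKM without it (1.10, limma adjusted p = 0.0543). Cilp, a secreted matrix protein of cartilage, measured 19.9, 13.6 and 11.0 FPKM with anti-PD-1 against 4.53, 3.61 and 8.69 FPKM without it (1.30, limma adjusted p = 0.101). Of 24 fibroblast and matrix genes 3 had an unadjusted p under 0.05, all on the higher side, and the median was 0.11 (0.033 to 0.22 without single tumours). On that side 7.40% of all genes had such a p. Postn, periostin, had overlapping groups, at 161, 117 and 78.7 FPKM with anti-PD-1 against 43.5, 32.1 and 88.8 FPKM without it (1.18, limma adjusted p = 0.278).

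Erythroid genes had the lowest median, and the RFA tumours held most of the spread. All 6 of 13 listed genes that passed the filter lay below 0 (median -1.57), 2 with an unadjusted p under 0.05 and 0 with groups that did not overlap. Over all genes 4.18% had such a p on the lower side and 7.19% had groups without overlap on that side. Hbb-bs, an adult beta globin, measured 48.7, 25.1 and 46.8 FPKM with anti-PD-1, against 228, 21.6 and 484 FPKM after RFA alone (-1.78, limma adjusted p = 0.469). Alas2, which starts heme synthesis in red cell precursors, measured 1.22, 0.519 and 0.866 FPKM with anti-PD-1 against 5.23, 0.387 and 11.4 FPKM without it (-1.36, limma adjusted p = 0.386). RFA replicates 1 and 3 were high and RFA replicate 2 was as low as the tumours with anti-PD-1. The summed FPKM of the list was 105.1, 54.3 and 93.2 with anti-PD-1 and 395.8, 43.5 and 1002.7 without it, and the median was -2.94 without RFA replicate 2 and -0.61 without RFA replicate 3. It was -0.17 with the muscle level as a covariate. For anti-PD-1 added to cryoablation the median was -3.22, and for cryo-thermal therapy it was 1.11. The globin genes are near-identical pairs, so their reads may be split between copies.

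**Figure D3:**
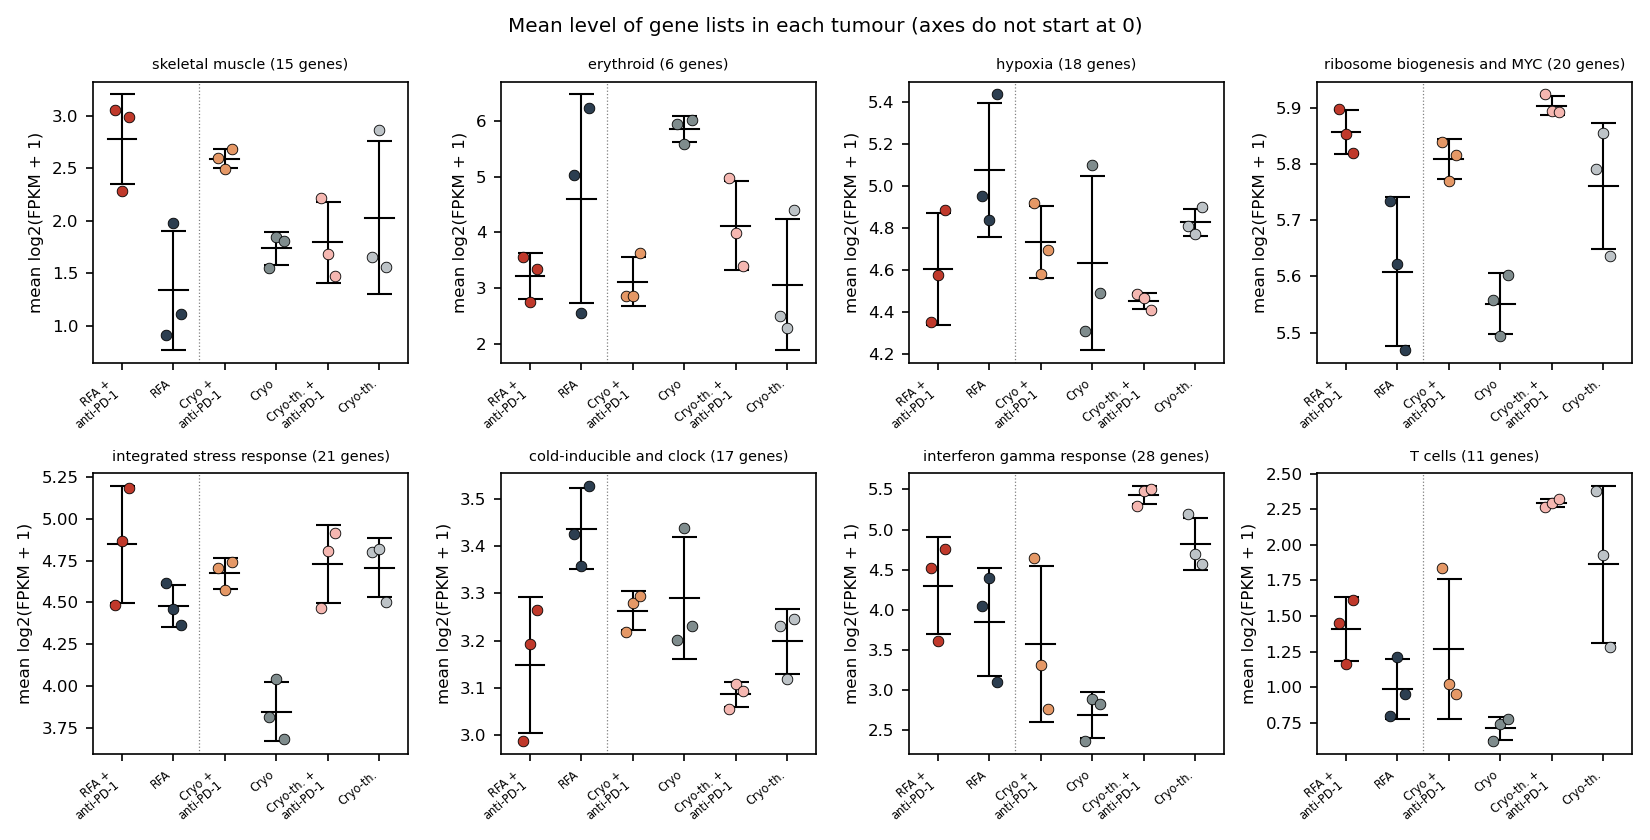
Mean log2(FPKM + 1) of the tested genes of 8 lists in each tumour (points), with the mean and SD of 3 tumours (lines), for RFA, cryoablation (Cryo) and cryo-thermal therapy (Cryo-th.), each with anti-PD-1 left of the ablation alone. Skeletal muscle levels are 3.05, 2.28 and 2.99 with anti-PD-1 added to RFA and 0.91, 1.98 and 1.11 after RFA, while the interferon gamma levels of these groups overlap.

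Most hypoxia genes lay lower with anti-PD-1, and none passed. These are targets of the HIF factors, which accumulate when oxygen is short and bind a DNA element with the core ACGTG. Of 18 genes 16 lay below 0, 9 had an unadjusted p under 0.05 on the lower side, 5 had groups that did not overlap, and the median was -0.48. On the lower side 4.18% of all genes had such a p and 7.19% had groups without overlap. Ankrd37, an ankyrin repeat protein, and Ddit4, an inhibitor of mTORC1 signalling, are 2 of the 3 with the smallest p, and their promoters are shown because both hold the core. The windows run from 250 bases before to 50 bases after the gene start (RefSeq, GRCm38.p6), on the minus strand at chr8:45999801-46000100 for Ankrd37 and chr10:59951721-59952020 for Ddit4, and capitals mark ACGTG.
Ankrd37: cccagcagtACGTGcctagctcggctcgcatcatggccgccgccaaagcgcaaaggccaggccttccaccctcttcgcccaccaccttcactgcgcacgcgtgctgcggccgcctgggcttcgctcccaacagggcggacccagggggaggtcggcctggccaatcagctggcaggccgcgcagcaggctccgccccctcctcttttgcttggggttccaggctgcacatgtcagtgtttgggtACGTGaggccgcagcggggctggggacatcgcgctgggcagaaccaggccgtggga
Ddit4: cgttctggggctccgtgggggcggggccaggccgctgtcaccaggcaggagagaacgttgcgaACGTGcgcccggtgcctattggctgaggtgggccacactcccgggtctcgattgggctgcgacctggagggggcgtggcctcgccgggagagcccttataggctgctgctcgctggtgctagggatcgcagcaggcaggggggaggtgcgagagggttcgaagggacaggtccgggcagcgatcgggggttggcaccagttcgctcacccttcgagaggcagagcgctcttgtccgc
ACGTG on either strand was in a promoter of 14 of the 17 hypoxia-list genes with promoters found (82.4%). The same held for 2892 of 9938 tested genes with promoters (29.1%). Some genes have several promoters, such as Ak4 with 4, and a match in any of them was counted. The list was made of HIF targets and the fold changes do not enter these shares, so they say nothing of the antibody. A match describes these letters only, and 3 members, Kdm3a, Adm and Pfkfb4, had none in any promoter found.

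Ankrd37 (654824) measured 17.3, 19.0 and 24.6 FPKM with anti-PD-1, against 35.1, 34.3 and 41.3 FPKM after RFA alone (-0.84, limma adjusted p = 0.176). Ddit4 (74747) measured 29.7, 33.8 and 49.1 FPKM with anti-PD-1 against 53.3, 84.9 and 73.2 FPKM without it (-0.90, limma adjusted p = 0.21). Kdm3a, a histone demethylase, measured 19.0, 21.4 and 25.1 FPKM with anti-PD-1 against 28.1, 29.0 and 31.8 FPKM without it (-0.43, limma adjusted p = 0.18). In these 3 every tumour with anti-PD-1 was below every tumour without it. The median of the list was -0.35 without RFA plus anti-PD-1 replicate 1, -0.30 without RFA replicate 3 and -0.38 with the muscle or the erythroid level as a covariate, and it was 0.17 with cryoablation and -0.38 with cryo-thermal therapy. Many glycolysis genes are HIF targets as well. All 16 lay below 0 with a median of -0.23 (-0.14 without RFA plus anti-PD-1 replicate 1), 3 of them with an unadjusted p under 0.05. Of all genes 48.3% lay below 0 and 4.18% had such a p on the lower side. Pdk1, the kinase that keeps pyruvate out of the mitochondria, measured 14.0, 13.6 and 20.8 FPKM with anti-PD-1 against 23.2, 22.6 and 22.8 FPKM without it (-0.50, limma adjusted p = 0.21).

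Genes of ribosome production, many of them targets of MYC, lay slightly higher in every tested member. All 20 lay above 0, 17 with an unadjusted p under 0.05, where 7.40% of all genes were on that side. Of the 20 genes 14 had groups that did not overlap (7.66% of all genes on that side), the median was 0.24 and 0 passed. Nolc1, a chaperone of the nucleolus, measured 60.4, 59.7 and 53.3 FPKM with anti-PD-1, against 51.5, 45.7 and 40.9 FPKM after RFA alone (0.33, limma adjusted p = 0.158). Nolc1 had the smallest adjusted p of the list. Outside the list, Tcof1, treacle, which acts in transcription of ribosomal RNA, measured 40.4, 48.6 and 44.6 FPKM with anti-PD-1 against 33.8, 33.5 and 28.4 FPKM without it (0.47, limma adjusted p = 0.0881). The median of the list was 0.16 to 0.32 over the omissions of single tumours and 0.25 with cryoablation. Replication genes of S phase had a median of 0.25, with 8 of 20 at an unadjusted p under 0.05, and Mcm2, a subunit of the replicative helicase, measured 56.8, 58.0 and 54.1 FPKM with anti-PD-1 against 47.7, 49.6 and 37.9 FPKM without it (0.32, limma adjusted p = 0.174). The S phase median was 0.11 without RFA replicate 3 and 0.053 with the muscle level as a covariate. Mitosis genes had 1 of 20 at that level, where 7.40% of all genes were on the higher side. Their median was 0.12, which was -0.018 without RFA plus anti-PD-1 replicate 1 and -0.065 with the muscle covariate. Aarsd1, an alanyl-tRNA editing protein, lay near the threshold with little spread, at 25.4, 25.2 and 25.6 FPKM with anti-PD-1 against 20.1, 19.7 and 20.3 FPKM without it (0.33, limma adjusted p = 0.0619).

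The integrated stress response, in which ATF4 induces genes of amino acid supply when protein synthesis is limited, had a median of 0.38. Of 21 genes 19 lay above 0, 8 had an unadjusted p under 0.05, 7 had groups that did not overlap and 0 passed. Higher genes with such a p were 7.40% of all genes, and higher genes without overlap 7.66%. Shmt2, a mitochondrial enzyme that makes single-carbon units from serine, measured 56.2, 64.8 and 68.6 FPKM with anti-PD-1, against 48.1, 47.2 and 37.1 FPKM without it (0.51, limma adjusted p = 0.194). Stc2, a secreted glycoprotein, measured 3.20, 4.86 and 5.17 FPKM with anti-PD-1 against 2.40, 2.45 and 2.28 FPKM without it (0.66, limma adjusted p = 0.196). Slc7a11 (26570), the cystine transporter, measured 1.65, 2.60 and 4.53 FPKM with anti-PD-1 against 1.61, 1.01 and 0.605 FPKM without it (0.88, limma adjusted p = 0.231), with RFA plus anti-PD-1 replicate 1 just above the highest RFA tumour. Without RFA plus anti-PD-1 replicate 3 the median of the list was 0.15. The Slc7a11 promoter is shown because it holds the element TGATGCAA, a form bound by ATF4 with C/EBP partners, on both strands (RefSeq, GRCm38.p6, minus strand, chr3:50443564-50443863, the same window, capitals for the element).
Slc7a11: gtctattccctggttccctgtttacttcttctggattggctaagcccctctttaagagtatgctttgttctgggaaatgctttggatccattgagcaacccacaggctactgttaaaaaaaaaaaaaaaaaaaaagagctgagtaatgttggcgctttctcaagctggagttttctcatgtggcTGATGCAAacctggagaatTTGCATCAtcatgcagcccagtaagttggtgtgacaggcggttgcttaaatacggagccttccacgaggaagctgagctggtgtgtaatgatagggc
TGATGCAA on either strand was in a promoter of 5 of the 19 list genes with promoters found (26.3%), Chac1, Atf3, Slc7a11, Vldlr and Nupr1. The same held for 76 of 9938 tested genes with promoters (0.765%). This list was made of genes of the ATF4 response, so these shares too say nothing of the antibody. The median of the list was 0.87 with cryoablation and 0.06 with cryo-thermal therapy.

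**Figure D4:**
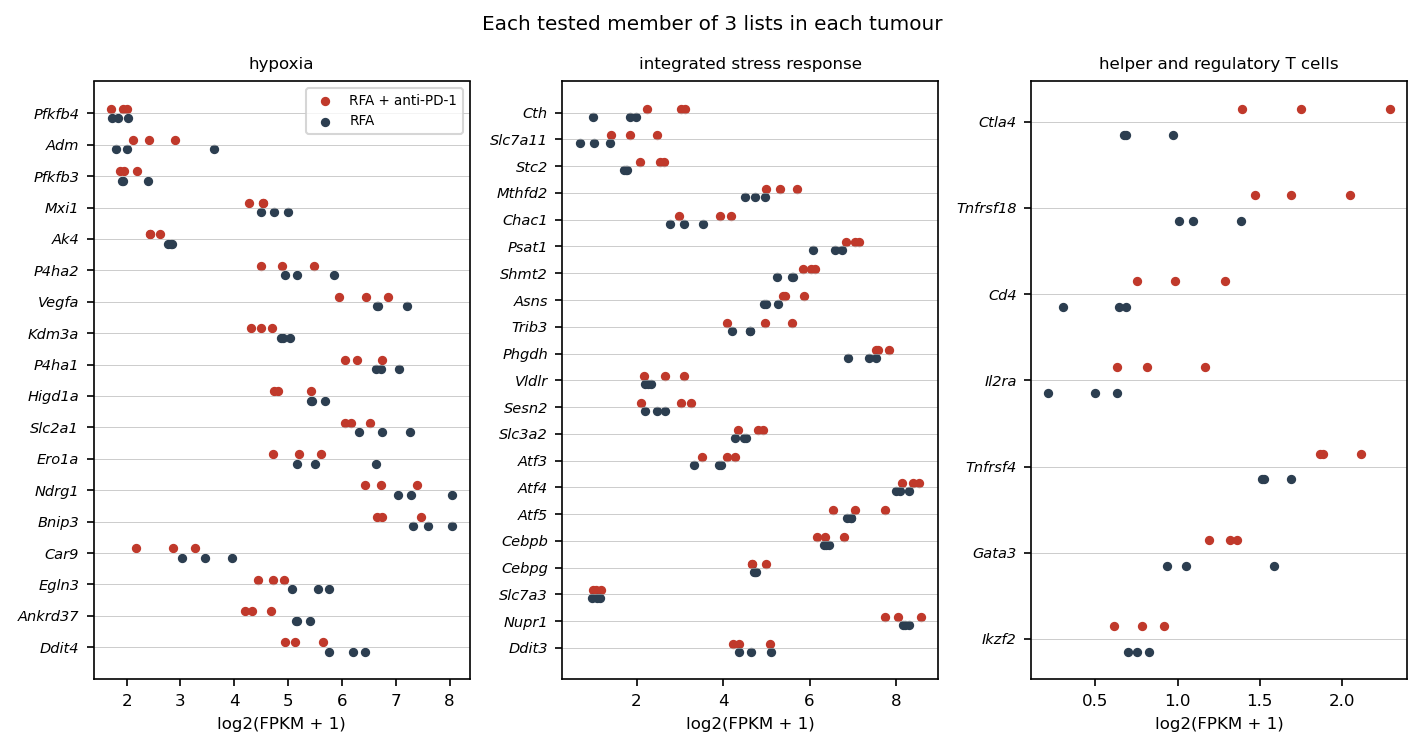
log2(FPKM + 1) of each tested gene of 3 lists in the 3 RFA plus anti-PD-1 tumours (red, upper) and the 3 RFA tumours (dark, lower). Ankrd37 and Ddit4 lie lower with anti-PD-1, Shmt2 and Stc2 higher, and Ctla4 higher, with no overlap of the groups in these 5 genes.

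Cytosolic chaperones lay mostly higher, and none passed. Of 18 heat shock genes 7 had an unadjusted p under 0.05 on the higher side and 1 on the lower, with a median of 0.19. Over all genes 7.40% had such a p on the higher side and 4.18% on the lower. The median was 0.10 without RFA plus anti-PD-1 replicate 3 and 0.097 with the muscle level as a covariate. Hspa8, the constitutive HSP70, measured 1596, 1478 and 1475 FPKM with anti-PD-1, against 1281, 1181 and 1231 FPKM after RFA alone (0.30, limma adjusted p = 0.106), and it has processed pseudogenes that may share its reads. Fkbp4, a co-chaperone of HSP90, measured 138, 134 and 157 FPKM with anti-PD-1 against 113, 112 and 105 FPKM without it (0.37, limma adjusted p = 0.136). The unfolded protein response of the endoplasmic reticulum had a median of -0.03, which ran from -0.072 to 0.040 without single tumours.

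Clock and cold-inducible genes lay mostly lower. Of 17 tested 14 were below 0, 8 with an unadjusted p under 0.05, where 4.18% of all genes were on that side, and 9 had groups that did not overlap on that side, against 7.19% of all genes. The median was -0.28, and -0.15 with the muscle level as a covariate. Per1, a repressor of the circadian clock that glucocorticoids also induce, measured 3.90, 4.96 and 5.70 FPKM with anti-PD-1, against 7.17, 10.3 and 13.1 FPKM after RFA alone (-0.91, limma adjusted p = 0.18). Dbp, a clock output factor, measured 3.07, 3.17 and 3.60 FPKM with anti-PD-1 against 6.08, 4.90 and 5.13 FPKM without it (-0.57, limma adjusted p = 0.195). Tef, a relative of Dbp, measured 6.88, 8.17 and 8.52 FPKM with anti-PD-1 against 10.6, 11.0 and 10.7 FPKM without it (-0.41, limma adjusted p = 0.175). The hour of collection was not given in the sources used here, and its part in these values was not tested. The medians of the list were 0.02 with cryoablation and -0.07 with cryo-thermal therapy.

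Among single genes on the lower side, Ube2b, a ubiquitin-conjugating enzyme of DNA repair, was nearest to the threshold at 38.8, 37.3 and 44.1 FPKM with anti-PD-1, against 50.2, 51.3 and 56.0 FPKM after RFA alone (-0.38, limma adjusted p = 0.0572). Arrdc3, an arrestin-like adaptor of receptor trafficking, measured 9.05, 12.0 and 11.9 FPKM with anti-PD-1 against 16.6, 22.99 and 21.5 FPKM without it (-0.83, limma adjusted p = 0.106). Chaserr, a long non-coding RNA beside Chd2, measured 5.58, 5.46 and 6.28 FPKM with anti-PD-1 against 8.13, 8.48 and 9.77 FPKM without it (-0.53, limma adjusted p = 0.105). The groups did not overlap in any of the 3. Atosa, Haghl, Lpcat2, Zfp821, Cog2, Pnrc1 and Sertad3, the next by p, had log2 fold changes of -0.62 to -0.21 and also did not pass (limma adjusted p = 0.105 to 0.155).

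Besides Ccl11, no chemokine of its list passed. Of 27 tested genes of that list 23 lay above 0 (median 0.32), 7 with an unadjusted p under 0.05, and 8 had groups that did not overlap on the higher side. The shares of all genes on that side were 7.40% and 7.66%. Cxcl14, a chemokine made by epithelium and fibroblasts, measured 14.7, 11.2 and 7.83 FPKM with anti-PD-1, against 3.36, 2.25 and 5.01 FPKM without it (1.44, limma adjusted p = 0.0866), and it passed with cryoablation (1.19, limma adjusted p = 0.0308). Ccl22, a ligand of CCR4 made by dendritic cells and macrophages, measured 3.36, 3.50 and 4.09 FPKM with anti-PD-1 against 0.745, 1.91 and 0.924 FPKM without it (1.12, limma adjusted p = 0.176). Cxcl10, the interferon-induced ligand of CXCR3, measured 368, 357 and 346 FPKM with anti-PD-1 against 157, 259 and 172 FPKM without it (0.90, limma adjusted p = 0.435). The groups did not overlap in Cxcl14, Ccl22 or Cxcl10. Ccl5, the chemokine of the series title, overlapped, at 2.59, 2.63 and 2.96 FPKM with anti-PD-1 against 4.05, 3.97 and 1.46 FPKM without it (-0.09, SE 0.36, limma adjusted p = 0.944).

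T cell genes lay higher in every tested member, and none passed. All 11 tested of 15 T cell genes in the table lay above 0 (median 0.39), 3 with an unadjusted p under 0.05. Of all genes 51.7% lay above 0 and 7.40% had such a p on the higher side. The mean level of the list was 1.45, 1.16 and 1.61 with anti-PD-1 and 0.80, 1.22 and 0.96 after RFA alone on the log2 scale, so the groups overlapped. Cd2, an adhesion receptor of T and NK cells, measured 2.21, 2.05 and 3.81 FPKM with anti-PD-1, against 0.544, 1.25 and 0.732 FPKM without it (0.99, limma adjusted p = 0.26). Among helper and regulatory T cell genes all 7 tested of 16 lay above 0 (median 0.43), where 51.7% of all genes did. Of these 7, 5 had groups that did not overlap, against 7.66% of all genes on the higher side. Ctla4, an inhibitory receptor of regulatory and activated T cells, measured 2.37, 1.63 and 3.90 FPKM with anti-PD-1 against 0.595, 0.966 and 0.613 FPKM without it (1.03, limma adjusted p = 0.21). Il2ra, the high-affinity IL-2 receptor chain, measured 0.760, 0.553 and 1.25 FPKM with anti-PD-1 against 0.410, 0.550 and 0.159 FPKM without it (0.43, limma adjusted p = 0.231). The groups of Il2ra meet almost exactly, at 0.553 and 0.550 FPKM. Foxp3, the factor of regulatory T cells, was under the filter and had no test, at 0.516, 0.361 and 0.754 FPKM with anti-PD-1 against 0.145, 0.128 and 0.127 FPKM without it. With the muscle level as a covariate the medians were 0.07 for the T cell list and 0.17 for the helper and regulatory list.

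No cytotoxic or interferon gene passed the test. Of 14 cytotoxic lymphocyte genes 0 had an unadjusted p under 0.05 in limma, and 0 passed after adjustment (median 0.24). That median was 0.082 without RFA plus anti-PD-1 replicate 3, 0.46 without RFA plus anti-PD-1 replicate 2 and -0.023 with the muscle level as a covariate. Cd8a, a chain of the CD8 co-receptor, measured 1.36, 0.609 and 1.41 FPKM with anti-PD-1, against 0.771, 1.67 and 0.744 FPKM after RFA alone (0.05, SE 0.33, limma adjusted p = 0.967). Ifng, interferon gamma, measured 0.870, 0.468 and 0.743 FPKM with anti-PD-1 against 0.300, 0.350 and 0.0432 FPKM without it (0.46, limma adjusted p = 0.499). Pdcd1, the gene of PD-1 itself, measured 1.55, 0.706 and 1.01 FPKM with anti-PD-1 against 0.456, 1.12 and 0.541 FPKM without it (0.29, limma adjusted p = 0.707). The groups overlapped in Cd8a and Pdcd1 and not in Ifng. Of the 28 interferon gamma response genes tested 26 lay above 0, where 51.7% of all genes did. Their median was 0.46, and 0 had an unadjusted p under 0.05. The mean levels of that list were 4.53, 3.61 and 4.76 with anti-PD-1 and 4.05, 4.40 and 3.10 without it, and the median was 0.03 without RFA replicate 3 and 0.84 without RFA plus anti-PD-1 replicate 2. Type I interferon, MHC class I and MHC class II genes had medians of 0.23, 0.16 and 0.19, with 0 genes at an unadjusted p under 0.05. The direction of the MHC lists rested on RFA replicate 3, without which the medians were -0.056 for class I and -0.026 for class II. They were also below 0 with the erythroid level (-0.077 and -0.26) or the muscle level (-0.10 and -0.094) as a covariate. The type I interferon median was 0.068 without RFA plus anti-PD-1 replicate 3 and 0.44 without RFA plus anti-PD-1 replicate 2. The interferon gamma median was 0.045 with the erythroid and -0.030 with the muscle covariate.

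**Figure D5:**
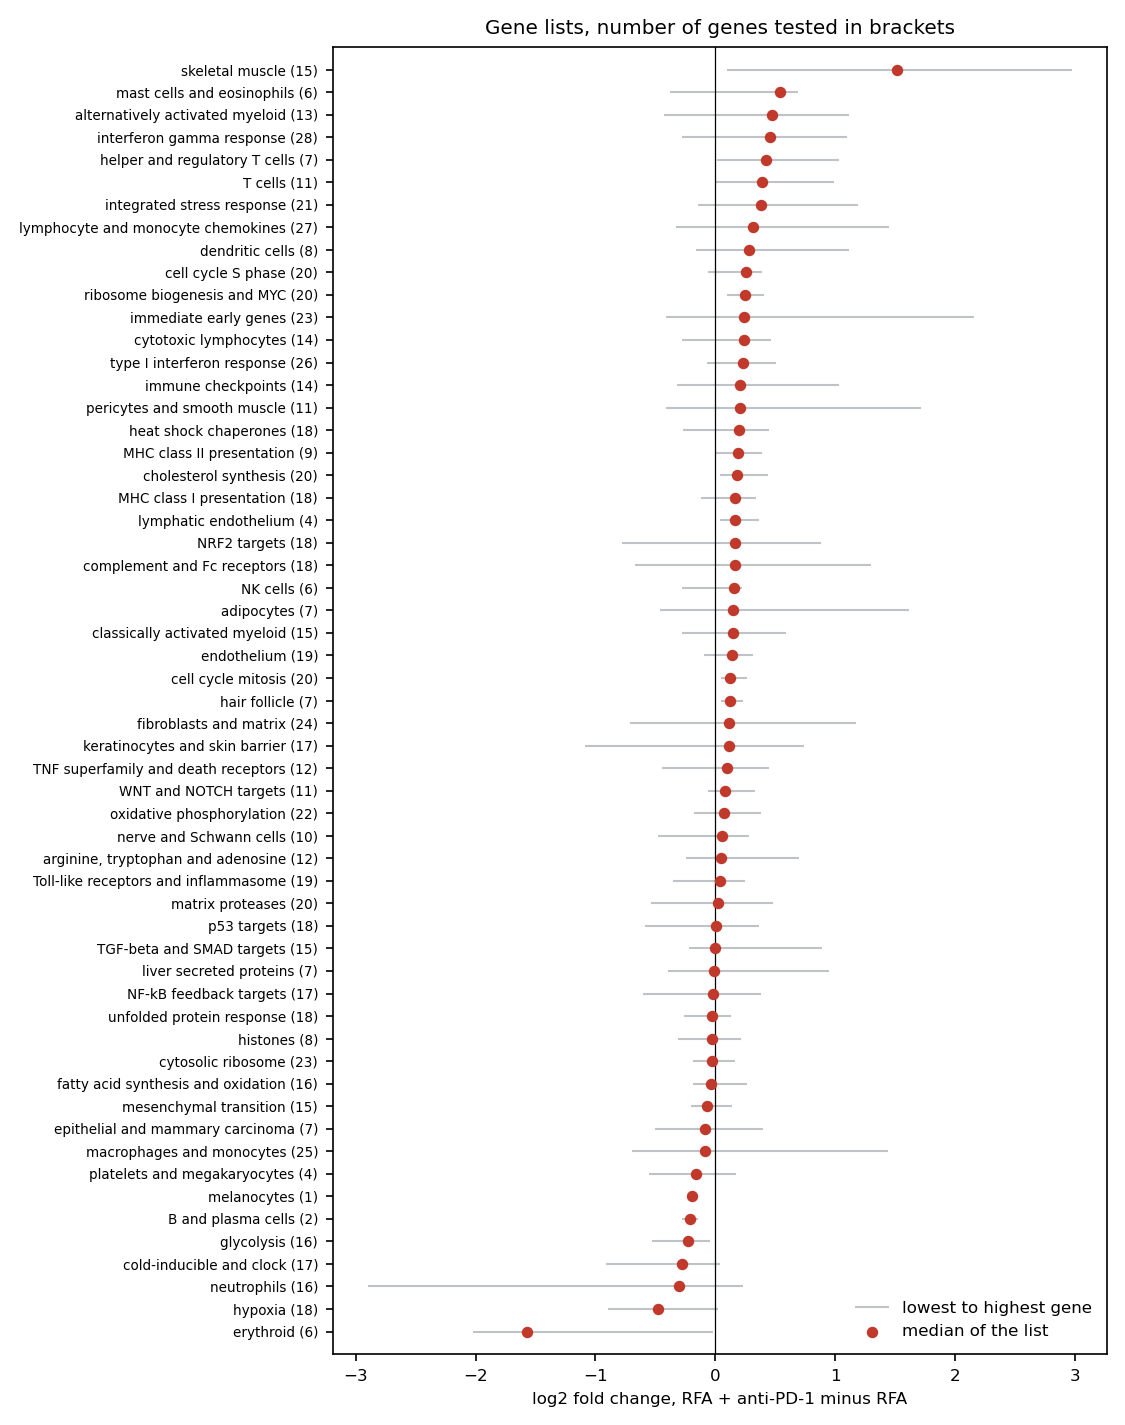
Median (red point) and range (grey line) of the log2 fold change of RFA plus anti-PD-1 over RFA for the tested genes of 57 lists. The medians run from -1.57 for erythroid genes to 1.52 for skeletal muscle genes, and 35 of the 57 lie within 0.2 of 0.

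Whether the antibody effect depended on the ablation was tested as a difference of differences. Against the effect in cryoablated animals 0 of 12587 genes passed limma (0%), with 956 at an unadjusted p under 0.05 (7.60%, of which 4.87% higher and 2.73% lower with RFA). Against the effect in animals given cryo-thermal therapy 0 passed as well (0%), with 910 at an unadjusted p under 0.05 (7.23%, of which 3.96% higher and 3.27% lower with RFA). This second count depended on the fit: with array weights, which give less weight to tumours that vary more, 375 genes passed limma, 198 higher and 177 lower with RFA. None of the 6 genes called with RFA passed with cryo-thermal therapy. All 6 passed this test of the difference with array weights and not without them. The 6 were chosen for their difference with RFA, which is part of this test, so passing it was favoured in advance. With array weights the limma adjusted p was 0.0225 for Cad, 0.0315 for Thbs4 and 0.0354 for Dnase1l1. The difference for Ccl11 was 0.97 (limma adjusted p = 0.468), and 1.10 with array weights (limma adjusted p = 0.0331). For Cd209g it was 0.88 (limma adjusted p = 0.329), and 1.00 with array weights (limma adjusted p = 0.0123). For Ccng2 it was -0.51 (limma adjusted p = 0.273), and -0.43 with array weights (limma adjusted p = 0.0207). Across the 12587 genes the effect with RFA had a Pearson r of 0.54 with that in cryoablated animals and 0.13 with that after cryo-thermal therapy. These comparisons share no tumours, and genes are not independent replicates.

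Among the genes nearest to passing, Cavin2 had an antibody effect of -0.14 with RFA and -1.35 with cryo-thermal therapy. That of Cry1 was -0.28 with RFA and 0.44 with cryoablation, of opposite sign. Cavin2, a protein of caveolae, measured 10.9, 10.8 and 11.9 FPKM with anti-PD-1 added to RFA, against 11.4, 11.3 and 14.9 FPKM after RFA alone, while it measured 6.17, 5.78 and 5.29 FPKM with anti-PD-1 added to cryo-thermal therapy, against 17.1, 16.4 and 15.2 FPKM after cryo-thermal therapy alone (difference of the effects 1.21, limma adjusted p = 0.14). Cry1, a clock repressor, measured 5.33, 6.56 and 6.35 FPKM with anti-PD-1 added to RFA, against 7.44, 6.90 and 8.39 FPKM after RFA alone. With cryoablation Cry1 had the opposite order, 6.46, 8.28 and 6.89 FPKM with anti-PD-1 against 5.41, 4.46 and 5.26 FPKM without it (difference of the effects -0.72, limma adjusted p = 0.591).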

How the data were processed

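Per the labels' protocols, TRIzol and silica columns with a DNase step gave RNA of 18 mouse tumours, and a VAHTS Universal V6 kit the libraries. The authors deposited FPKM values per gene. The submitters' processing notes name HTSeq 0.11.2. The sources used here do not give the aligner, build, annotation, strand setting or filters, so overlapping and antisense genes cannot be separated. The table holds no counts, and the planned branch for counts was not used. Relative depths, from the most frequent ratio of low values between tumours, were 0.983 to 1.019 over the 18 tumours. Of 39454 low values scaled by them, 99.95% were whole multiples of 1 fragment within 0.05 fragments. The step of 1 fragment was chosen for each gene as its lowest value or a simple fraction of it, so that value always counted as whole. A depth of 38100000 fragments fitted 476 of 2680 genes with known lengths.

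Values were analysed as log2(FPKM + 1) for genes with a mean of at least 0.5 FPKM. limma 3.58.1 in R 4.3.3 fitted 1 mean per group over all 18 tumours with a mean-variance trend, tests were 2-sided, and p was adjusted by Benjamini and Hochberg over 12587 genes with a threshold of 0.05. The script was checked on simulated data. An exact permutation test of 3 tumours against 3 cannot give a p under 0.1. Errors are SD of 3 tumours, or SE from limma where written. The comparison, the 57 gene lists and the rule for named genes were chosen with earlier results of these data known. The rule named the 12 genes with the smallest p in each direction, since fewer than 5 passed in each, leaving out predicted genes and clones, then up to 3 members of each list, genes of the question and the leading genes of each difference of effects. Of 1045 list entries 1027 were in the table, and 783 distinct genes were tested. Lists are described by counts and medians, without a test. Promoters came from RefSeq (GRCm38.p6) by symbol. Alternatives varied the filter, pseudocount, scaling, tumours, weights, trend, block and covariates.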

Additional observations from a re-analysis of the deposited data

How the results depend on the processing

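The number of genes past limma for anti-PD-1 added to RFA, 6 as reported, was 10 with no filter on low values (7 higher and 3 lower, 4 of them shared). It was 0 without the 3 tumours rich in hair follicle RNA, 0 with the erythroid level and 0 with the skeletal muscle level as a covariate, 1 when just the 6 tumours compared were fitted (Ccl11, limma adjusted p = 0.00596) and 0 to 3 without single tumours. With a minimum of 1 FPKM, log2(FPKM + 0.1), median-ratio scaling, quantile normalization, array weights or no mean-variance trend it was 4 or 5. The cause of these shifts was not tested, beyond the smaller number of tumours in some fits. The 6 genes kept their direction in each of the 18 alternatives, or for Cd209g in 17, since a minimum of 1 FPKM left it out. Their log2 fold changes were 1.49 to 2.38 for Thbs4, 1.31 to 2.02 for Ccl11, 0.98 to 2.51 for Cd209g, 0.33 to 0.37 for Cad, -0.65 to -0.50 for Ccng2 and -0.38 to -0.31 for Dnase1l1. Their limma adjusted p ran from 0.00596 to 0.902. Same-numbered tumours of the groups did not deviate together (r of -0.0007, -0.44 and -0.40 across genes). The highest r, 0.50, was that of RFA plus anti-PD-1 replicate 2 with RFA replicate 3. Deviations from a mean of 3 tumours are tied to each other, so these values cannot tell whether the numbers pair the tumours. A replicate block left 1 gene (Thbs4, limma adjusted p = 0.0259).

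For the difference from the effect with cryoablation the count of 0 became 2 with no filter and 0 to 1 without single tumours. For that from cryo-thermal therapy it became 2 with no filter, 1 without the tumours rich in hair follicle RNA, 1 with the muscle level as a covariate, 1 when just the tumours compared were fitted, 375 with array weights (the 6 genes among them) and 0 to 4 without single tumours, with 4 when cryo-thermal replicate 3 was left out. The log2 fold change of Cd8a turned to -0.0040 with array weights, -0.28 with the erythroid and -0.35 with the muscle covariate, and ran from -0.057 to 0.25 without single tumours. That of Ccl5 turned to 0.054 with the muscle covariate and ran from -0.43 to 0.091 without single tumours, and that of Cxcl10 turned to -0.0071 with the muscle covariate. That of Hbb-bs turned to 0.051 with the erythroid covariate, a change built in because the covariate is the mean of a list that holds Hbb-bs. None of these 4 genes passed in the reported fit. With log2(FPKM + 0.1) the list medians were larger for skeletal muscle (2.75), T cells (0.71) and helper and regulatory T cells (0.86). No setting moved the median of all genes by more than 0.1.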

Other observations

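Of 18 genes of complement and Fc receptors 12 lay above 0 with anti-PD-1, where 51.7% of all genes did, and the median was 0.16. On the higher side 3 had an unadjusted p under 0.05, against 7.40% of all genes, and 0 passed limma after adjustment. The median was 0.015 without RFA replicate 1 and 0.054 without RFA plus anti-PD-1 replicate 3. Serping1, the C1 inhibitor, measured 40.7, 26.8 and 26.9 FPKM with anti-PD-1 added to RFA, against 10.1, 8.46 and 19.6 FPKM after RFA alone (log2 fold change 1.30, limma adjusted p = 0.206). Cfb, complement factor B of the alternative pathway, measured 17.8, 12.3 and 14.4 FPKM with anti-PD-1 against 4.57, 9.04 and 5.58 FPKM without it (1.13, limma adjusted p = 0.196). Neither gene had overlapping groups, and the median of the list was 0.04 with the muscle or the erythroid level as a covariate.

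Of 16 neutrophil genes tested 14 were below 0 (median -0.31), where 48.3% of all genes were. On the lower side 3 had an unadjusted p under 0.05, against 4.18% of all genes. The median was -0.50 without RFA plus anti-PD-1 replicate 3, -0.19 without RFA replicate 2 and -0.16 with the muscle level as a covariate. For anti-PD-1 added to cryoablation it was -0.87, and for cryo-thermal therapy 0.49. S100a9, a subunit of calprotectin, measured 8.93, 26.9 and 7.62 FPKM with anti-PD-1, against 60.4, 91.2 and 174 FPKM after RFA alone (-2.90, limma adjusted p = 0.231), and its partner S100a8 measured 5.17, 21.1 and 5.39 FPKM with anti-PD-1 against 33.5, 46.0 and 134 FPKM without it (-2.66, limma adjusted p = 0.257). The groups did not overlap in either gene. With cryoablation the log2 fold changes of anti-PD-1 were -2.23 for S100a9 and -1.75 for S100a8, and with cryo-thermal therapy they were 2.87 and 2.61.

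Immediate early genes, induced within minutes of a stimulus or of handling, had a median of 0.24, with 6 of 23 at an unadjusted p under 0.05. All 6 were on the higher side, where 7.40% of all genes had such a p. The median was 0.11 without RFA plus anti-PD-1 replicate 2, 0.41 without RFA plus anti-PD-1 replicate 1 and 0.54 with the muscle level as a covariate. Fosb, an AP-1 subunit, measured 14.1, 43.9 and 17.0 FPKM with anti-PD-1, against 8.70, 1.98 and 3.78 FPKM after RFA alone (2.16, limma adjusted p = 0.21), and the effect was -0.52 with cryoablation and -1.56 with cryo-thermal therapy. Among 18 NRF2 targets 5 had an unadjusted p under 0.05, all higher (median 0.16, and 0.075 without RFA replicate 2). The share of all genes with such a p on that side was 7.40%. Txnrd1, thioredoxin reductase, measured 40.5, 44.6 and 37.1 FPKM with anti-PD-1 against 34.0, 29.4 and 30.0 FPKM without it (0.38, limma adjusted p = 0.106).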
